A study of Mus musculus with 6 samples.

Results

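The zinc finger genes of human chromosome 19 were examined in HK-2 cells, an immortalised line derived from the proximal tubule of the human kidney, with and without overexpression of USAG-1. Members were all genes of the deposited count table on chromosome 19 whose symbol is ZNF followed by a number, with or without 1 closing letter, which gave 253 of 39234 genes. Of these, 239 had enough counts to be tested and 231 had at least 10 counts in every library. The design compared 3 control libraries with 3 USAG1_OE libraries, and the question was how the transcriptome differs when USAG-1 (gene SOSTDC1, a secreted antagonist of BMP and Wnt signalling) is raised. The labels give the same wild-type genotype for both groups. In the study's methods overexpression was by transient transfection of a plasmid, and neither the labels nor the methods used here say for these libraries whether control cells received an empty plasmid. All libraries came from a single cell line, and the study's methods give biological replicates for most experiments without naming these libraries, so where they were not separate cultures the p-values measure only the spread between these samples. Both the cell line and the Ensembl identifiers of the table are human, although the organism field of the labels says mouse.

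Most zinc finger genes of this chromosome lie in tandem clusters that arose by repeated duplication, and many encode proteins with a KRAB domain ahead of an array of C2H2 zinc fingers. The fingers read DNA, often within transposable elements. The KRAB domain recruits TRIM28 (KAP1), which in turn brings the histone H3 lysine 9 methyltransferase SETDB1 and HP1 proteins, so that the bound site is held in a repressed state. Other members, such as ZNF146, consist of fingers without a KRAB domain. Tandem copies are alike in sequence, and how reads shared between copies were counted was not given in the sources used here, so the counts of single members are uncertain to that extent.

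Libraries held between 41236194 and 48699471 counts, of which the 253 members contributed between 93139 and 124251. SOSTDC1 stood at 1.64 ± 0.243 CPM (library-scaled counts after TMM, mean ± SD, n = 3) in control and 101 ± 10.6 CPM in USAG1_OE libraries. Some measures beyond the zinc finger genes differed between the groups. Mitochondrially encoded genes took 4.80 to 5.59% of counts in control and 1.50 to 1.55% in USAG1_OE libraries. All 10 genes of a T and cytotoxic lymphocyte list were called lower, with summed levels of 70.3 to 84.0 CPM in control and 8.76 to 12.1 CPM in USAG1_OE libraries and none of the 10 at 0 in every library. In a myeloid list 1 of 4 genes (LYZ) was called lower, and the sums were 32.3 to 48.7 and 20.4 to 27.3 CPM. Of 4 B cell genes tested and 2 fibroblast genes tested none was called by edgeR, with sums under 10 CPM in every library and COL1A2 at 0 throughout. The part of these differences in the zinc finger results was not tested, and in bulk RNA fewer cells of a type and less RNA per cell cannot be told apart. Of the 8 proximal tubule markers 7 were in the table, 4 were tested and 1 (GGT1) was called higher, while LRP2 had no count in any library and AQP1 and CUBN had 0 to 15. Of 5 epithelial genes 4 were tested and none was called by edgeR's quasi-likelihood test, with KRT8, KRT18, KRT19 and EPCAM present in every library and CDH1 at 0 to 9 counts.

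The chromosome 19 zinc finger genes that passed the test with all libraries all rose. By the quasi-likelihood test of edgeR, with p-values adjusted after Benjamini and Hochberg over 18188 genes, 17 of the 239 tested members had an adjusted p under 0.05 and were higher in USAG1_OE cells, and 0 were lower. These were 7.11% of the members, whereas 15.9% of all genes tested were called, 8.95% higher and 6.91% lower. At an unadjusted p under 0.05, 47 members were higher (19.7%, against 15.8% of all genes) and 7 were lower (2.93%, against 14.7%). The count of lower members was 2 with DESeq2's Wald test and 0 with limma-voom. DESeq2 called 26 members higher, beside 11.2% of all genes higher and 9.49% lower. In either direction it called 11.7% of the members and 20.7% of all genes. Leaving out control replicate 3 gave 27 higher and 4 lower members, together 12.9% of the members. Of all genes 27.0% were then called, 15.8% higher and 11.2% lower. Without control replicates 1 and 2 in turn, 14 and 8 members were higher (5.83% and 3.33%). Of all genes, 5.77% and 5.00% were higher, and 10.2% and 8.74% were called in either direction. Without USAG1_OE replicates 1, 2 and 3 in turn, 5, 7 and 5 members were higher (2.08%, 2.93% and 2.09%). Of all genes, 3.76%, 3.31% and 4.01% were higher, and 6.92%, 5.98% and 7.09% were called in either direction. None was lower in these 5 fits, in which 3 to 7 members had a negative log2 fold change at an unadjusted p under 0.05.

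**Figure D1:**
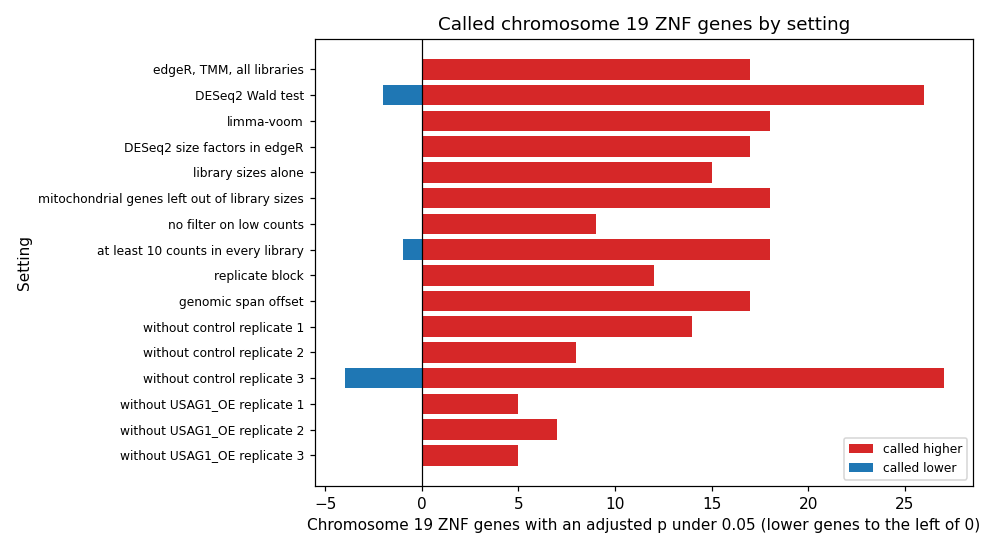
Number of chromosome 19 ZNF genes called higher (red, to the right of 0) or lower (blue, to the left of 0) in USAG1_OE cells, for edgeR with all libraries and each processing alternative. Higher genes outnumbered lower genes in every setting shown, from 5 higher and 0 lower without USAG1_OE replicate 1 to 27 higher and 4 lower without control replicate 3. Of all genes, 3.76% were called higher and 3.16% lower in the first of these, and 15.8% and 11.2% in the last.

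The shift was small and was spread over many members. The log2 fold change was above 0 for 165 of the 239 (69.0%) and below 0 for 74, whereas it was above 0 for 47.5% of all genes tested. The median log2 fold change of the members was 0.14, with quartiles of -0.04 and 0.33, beside a median of -0.02 over all genes. Of the 1014 other genes of chromosome 19 that were tested, 49.2% lay above 0, with a median of -0.01, 92 called higher and 38 called lower. Of the 240 ZNF genes tested on other chromosomes, 52.1% lay above 0, with a median of 0.01, 13 called higher and 9 called lower. No test was made of these differences between gene groups. Among the members, 61 lay within 0.1 of 0, and 4 lay 1 log2 unit or more from 0. The 4 were ZNF114, ZNF442 and ZNF702P, which rose, and ZNF837 at -1.16, whose counts were 14, 18 and 23 in control and 0, 16 and 8 in USAG1_OE libraries (adjusted p = 0.435).

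**Figure D2:**
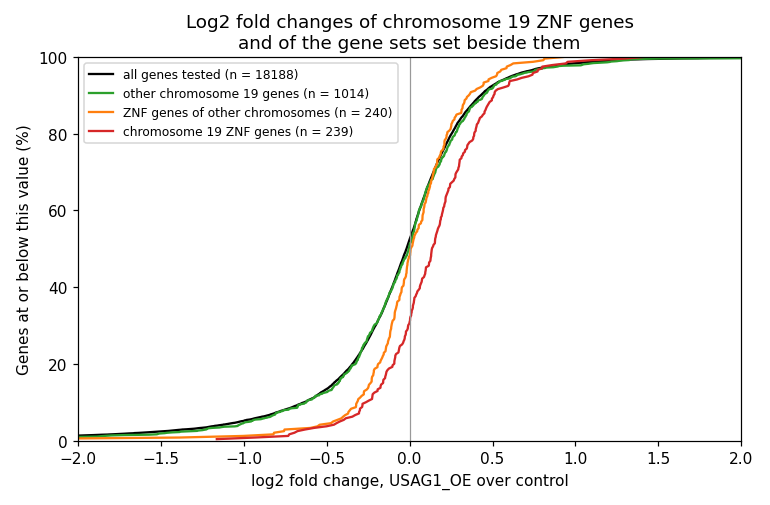
Cumulative share of genes (percent, vertical axis) at or below each log2 fold change of USAG1_OE over control (horizontal axis, drawn from -2 to 2). The curve of the 239 chromosome 19 ZNF genes (red) lies to the right of the others through its middle, with a median of 0.14 against -0.02 for all genes, -0.01 for other chromosome 19 genes and 0.01 for ZNF genes of other chromosomes.

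Groups did not overlap, in that every USAG1_OE library was above every control library, for 73 members (30.5%, against 19.4% of all genes). The reverse order held for 9 members (3.77%, against 18.1%). Of the 231 members with at least 10 counts in every library, 164 (71.0%) had a log2 fold change above 0. The median of the 231 was 0.15 and the same 17 calls made up 7.36%. With the same minimum, 49.3% of all genes lay above 0, with a median of -0.01. Of those genes 17.3% were called, 10.1% higher and 7.15% lower. Ordered by mean count, the 80 members with the fewest counts held 3 calls (3.75%). The next 79 held 3 (3.80%) and the 80 with the most held 11 (13.75%), with medians of 0.09, 0.12 and 0.17 in turn. Of all genes tested, 8.95% were called higher, a share over all levels of counts that was not split by mean count. Members on the plus strand numbered 130, of which 11 (8.46%) were called, and those on the minus strand 109, of which 6 (5.50%) were called. Their medians were 0.13 and 0.15. Of the 71 members that overlap no other gene of the table, 51 lay above 0 and 6 (8.45%) were called, with a median of 0.13.

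Of the called members, 5 stayed called in all 15 alternatives tried, namely ZNF114, ZNF702P, ZNF93, ZNF628 and ZNF542P. ZNF114 (ENSG00000178150, hg38 chr19:48270081-48287608, plus strand) showed the largest rise. Its counts were 995, 1122 and 743 in control and 2684, 2594 and 2256 in USAG1_OE libraries, that is 21.3 ± 3.43 CPM and 56.7 ± 3.87 CPM. Every USAG1_OE library was well above the highest control library. The log2 fold change was 1.41 (SE 0.12, adjusted p = 4.6e-04), and it ranged from 1.29 to 1.50 over the alternatives. The antisense gene ZNF114-AS1 overlaps it on the other strand.

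ZNF702P (ENSG00000242779, chr19:52966896-53037898, minus strand), whose closing P marks it as a pseudogene, had counts of 558, 531 and 556 in control and 1308, 1060 and 1143 in USAG1_OE libraries. Its level went from 12.4 ± 1.42 CPM to 26.4 ± 2.11 CPM, a log2 fold change of 1.09 (SE 0.11, adjusted p = 9.41e-04), with no overlap of the groups. It spans other genes on both strands, among them the endogenous retroviral gene ERVV-1. ZNF542P (ENSG00000240225, chr19:56368099-56379553, plus strand), also named as a pseudogene, had 1074, 1201 and 1131 counts in control and 1507, 1465 and 1462 in USAG1_OE libraries. The change was smaller and the replicates lay close together, at a log2 fold change of 0.39 (SE 0.07, adjusted p = 0.00749). It overlaps ZNF582 on the other strand. Of the 8 tested members with a name ending in P, 6 lay above 0 and these 2 were called.

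ZNF93 (ENSG00000184635, chr19:19900913-19935575, plus strand) encodes a KRAB zinc finger protein known to repress LINE-1 retrotransposons. It held 499, 571 and 463 counts in control and 883, 851 and 862 in USAG1_OE libraries, that is 11.5 ± 0.556 CPM and 19.6 ± 0.377 CPM. The spread within each group was far smaller than the gap between them, and the log2 fold change was 0.77 (SE 0.09, adjusted p = 0.00132). ZNF91, a KRAB zinc finger gene that represses SVA elements and lies in the same cluster, had counts of 650, 842 and 529 in control and 874, 814 and 849 in USAG1_OE libraries. On the CPM scale its groups did not overlap, but the difference missed the threshold, with a log2 fold change of 0.35 (SE 0.12, adjusted p = 0.0936). ZNF628 (ENSG00000197483, chr19:55476617-55484487, plus strand) had 545, 638 and 553 counts in control and 790, 802 and 863 in USAG1_OE libraries, with a log2 fold change of 0.51 (SE 0.09, adjusted p = 0.00839) and no gene overlapping it.

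**Figure D3:**
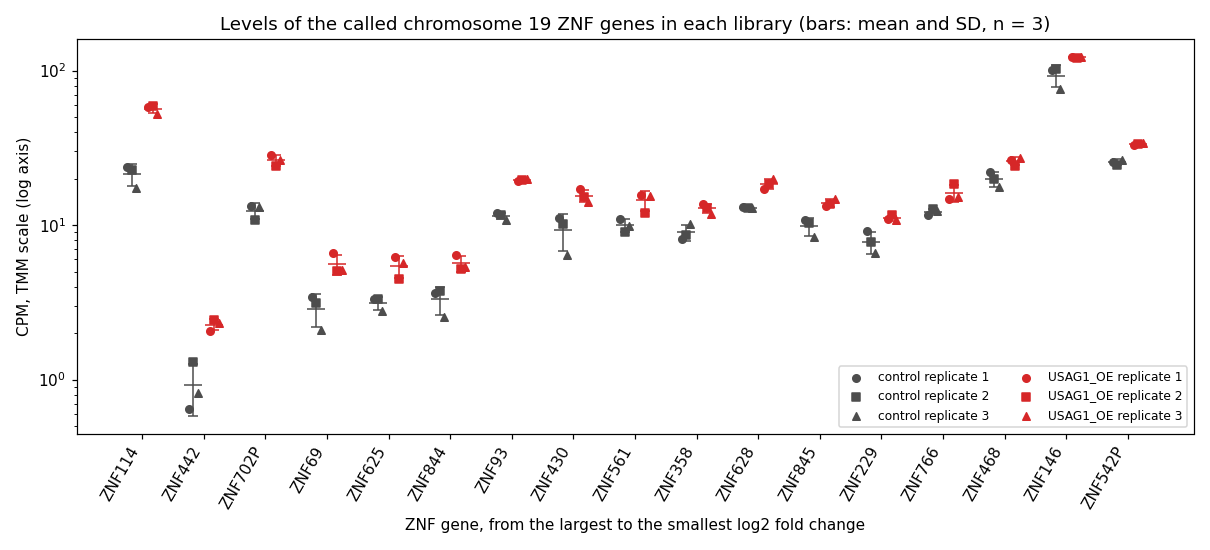
Level of each of the 17 called chromosome 19 ZNF genes in every library (CPM after TMM scaling, log axis), ordered by log2 fold change. Grey symbols are control and red symbols USAG1_OE libraries, the shape gives the replicate, and bars are mean and SD with n = 3. For all 17 genes the USAG1_OE libraries lie above the control libraries, from a log2 fold change of 1.41 for ZNF114 to 0.39 for ZNF542P.

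The other 12 called members lost their call in 3 to 8 of the 15 alternatives, and for each of them the alternatives included leaving out 1 library. ZNF442 had few counts, 27, 64 and 35 in control and 95, 106 and 100 in USAG1_OE libraries, and a log2 fold change of 1.29 (SE 0.29, adjusted p = 0.0215). ZNF69 had 143, 155 and 89 counts against 302, 222 and 220, a log2 fold change of 0.95 (SE 0.22, adjusted p = 0.0239). In both genes the groups stood apart, with control replicates that varied widely among themselves. ZNF625 had 138, 163 and 118 counts against 284, 196 and 244 (log2 fold change 0.80, adjusted p = 0.0202), and it shares sequence with the readthrough gene ZNF625-ZNF20. ZNF844 had 152, 186 and 108 counts against 296, 227 and 231 (0.77, adjusted p = 0.0328). ZNF430 had 465, 502 and 275 counts against 782, 662 and 613 (0.74, adjusted p = 0.0368). In each of these genes except ZNF442 control replicate 3 was the lowest library, and without it the log2 fold changes of ZNF69, ZNF844 and ZNF430 were 0.77, 0.62 and 0.54, all still called.

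The 7 remaining called members rose by between 0.39 and 0.53 on the log2 scale. ZNF561 had 459, 447 and 423 counts in control and 724, 524 and 671 in USAG1_OE libraries, and ZNF358 had 340, 426 and 431 against 627, 567 and 512. Their log2 fold changes were 0.53 and 0.52 (adjusted p = 0.0356 and 0.0254), and in ZNF358 control replicate 3 was the highest control library. ZNF845, ZNF229, ZNF766 and ZNF468 had log2 fold changes of 0.51, 0.50, 0.40 and 0.40 (adjusted p = 0.0305, 0.0451, 0.0467 and 0.0328), and ZNF468 overlaps its neighbour ZNF28 on the same strand. ZNF146, a gene of fingers alone, had the most counts of all members, 4193, 5067 and 3221 in control and 5609, 5251 and 5287 in USAG1_OE libraries. Its log2 fold change of 0.39 (SE 0.11, adjusted p = 0.0482) was close to the threshold, and without control replicate 3 it was 0.27 and still called. ZNF565 overlaps it on the other strand.

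Of the 7 members named for a known role, ZNF93 was called. ZNF274, which binds the 3′ ends of zinc finger genes and recruits SETDB1 there, had 2394, 2902 and 1952 counts in control and 2808, 2688 and 2825 in USAG1_OE libraries. On the CPM scale its groups did not overlap, and the log2 fold change was 0.22 (SE 0.10, adjusted p = 0.179). ZNF675, an inhibitor of TRAF6 signalling, and ZNF420, a regulator of p53, had log2 fold changes of 0.30 (adjusted p = 0.256) and 0.35 (adjusted p = 0.26). ZNF224, a repressor of the aldolase A gene, had 359, 509 and 365 counts against 430, 285 and 402, a log2 fold change of -0.12 (adjusted p = 0.673) that turned to 0.031 without USAG1_OE replicate 2. ZNF154, whose promoter is often methylated in tumours, had 91, 86 and 46 counts against 51, 60 and 50, a log2 fold change of -0.46 (SE 0.30, adjusted p = 0.351). In ZNF224 and ZNF154 the groups overlapped, in ZNF154 through control replicate 3. Without that library the log2 fold change of ZNF154 was -0.68 (adjusted p = 0.0802), and ZNF154 was still not called. ZNF787, behind ZNF146 and ZNF274 the member with the most counts, had 2004, 2334 and 2748 counts against 2506, 2418 and 2574, and a log2 fold change of 0.09 (adjusted p = 0.677). Control replicate 3 was its highest library, and without it ZNF787 was called higher, at 0.25 (adjusted p = 0.01).

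The 7 members with an unadjusted p under 0.05 and a negative log2 fold change were ZNF547, ZNF836, ZNF784, ZNF324, ZNF428, ZNF581 and ZNF580. Of these, 5 lie in the last cluster of the chromosome, which holds 60 of the 239 tested members. Of all genes, 14.7% were lower at that threshold. The smallest p among the 7 belonged to ZNF547, with 133, 170 and 115 counts in control and 87, 74 and 97 in USAG1_OE libraries. Its log2 fold change was -0.68 (SE 0.20, adjusted p = 0.054), and it overlaps TRAPPC2B on the same strand. Its groups stood apart, and it was called lower by DESeq2, with at least 10 counts in every library and without control replicate 3. ZNF784 had 356, 532 and 554 counts in control and 345, 380 and 285 in USAG1_OE libraries, with a log2 fold change of -0.50 (SE 0.18, adjusted p = 0.0982), and was called lower by DESeq2.

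Along the chromosome the members were ordered by start and split where neighbours lay more than 1 Mb apart, which gave 16 clusters. Of these, 7 held at least 13 tested members each and 220 tested members together. The calls of each cluster stand beside 8.95% of all genes called higher and 6.91% called lower. Cluster 3, at 11.5 to 12.6 Mb, had 25 tested members, 21 of them above 0 (84.0%), a median log2 fold change of 0.32 and 4 calls (ZNF69, ZNF844, ZNF625 and ZNF442). Cluster 15, at 51.6 to 53.6 Mb, had 41 tested members, 35 of them above 0 (85.4%), a median of 0.30 and 4 calls (ZNF766, ZNF468, ZNF702P and ZNF845). In cluster 15, 16 of the 41 tested members were higher at an unadjusted p under 0.05 (15.8% of all genes were). In 20 of the 41, every USAG1_OE library was above every control library (19.4% of all genes were). These were the clusters with the highest medians among those with at least 3 tested members. Over 15 alternatives their medians stayed between 0.28 and 0.45 and between 0.20 and 0.37. Without control replicate 3 they were 0.28 and 0.20, and 0.27 and 0.20 when DESeq2 was used as well (added after seeing the data).

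Cluster 6, at 19.7 to 24.1 Mb, held ZNF93, ZNF430 and ZNF91 among 31 tested members, of which 23 lay above 0, with a median of 0.18. Cluster 9, at 36.2 to 37.8 Mb, held ZNF146 among 27 tested members, of which 20 lay above 0, with a median of 0.15. Cluster 2, at 7.07 to 9.79 Mb, held ZNF358 and ZNF561 among 13 tested members, of which 9 lay above 0, with a median of 0.13. The medians of these 3 clusters depended on control replicate 3 and were 0.08, 0.03 and 0.03 without it. Cluster 12, at 43.5 to 45.1 Mb, had 12 members above 0 and 11 below, with a median of 0.00 and ZNF229 as its call. That median was 0.13 without control replicate 1 and -0.03 without control replicate 3. Cluster 16, at 55.5 to 58.5 Mb and the largest, had 60 tested members, 36 above 0 and 24 below, a median of 0.04 and 2 calls (ZNF628 and ZNF542P). There, 4 members were higher and 5 lower at an unadjusted p under 0.05. Of all genes, 15.8% were higher and 14.7% lower at that threshold. In 15 of the 60, every USAG1_OE library was above every control library (19.4% of all genes were). The reverse order held for 5 of the 60 (18.1% of all genes).

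**Figure D4:**
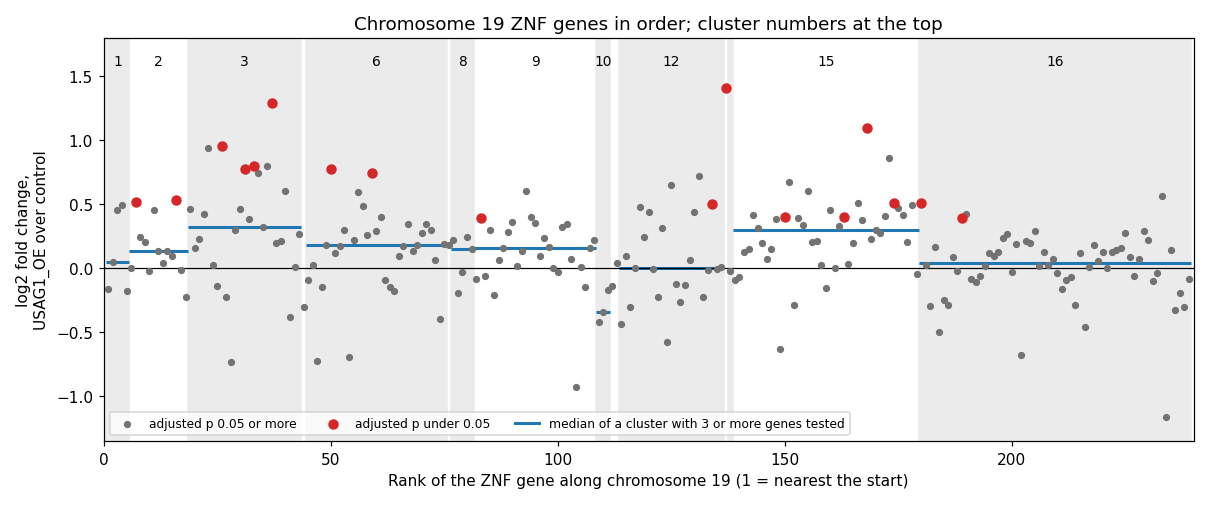
Log2 fold change of USAG1_OE over control (vertical axis) for the 239 tested chromosome 19 ZNF genes in their order along the chromosome (horizontal axis, rank from the start), with shaded and plain bands for successive clusters. Red points have an adjusted p under 0.05, and blue lines are medians of clusters with at least 3 tested genes. The lines stand highest in clusters 3 (0.32) and 15 (0.30), at 0.00 in cluster 12 (0.13 without control replicate 1) and 0.04 in cluster 16, and at -0.35 in cluster 10.

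The small clusters held few calls. ZNF114 was the single tested member of cluster 13, next to ZNF541, which had too few counts. Clusters 1 and 8 had 5 tested members each, with medians of 0.05 and 0.15 and no call. Without USAG1_OE replicate 1 these medians were -0.0076 and 0.038, and without control replicate 2 that of cluster 8 was -0.0038. Their members with the smallest p were ZNF57, at 124, 168 and 140 counts against 215, 180 and 208 (log2 fold change 0.50, adjusted p = 0.0659), and ZNF30, at 116, 147 and 117 against 183, 133 and 131 (0.24, adjusted p = 0.412). In cluster 10 all 3 members lay below 0, with a median of -0.35. Its member ZNF780B had 350, 344 and 216 counts in control and 259, 253 and 200 in USAG1_OE libraries (log2 fold change -0.35, adjusted p = 0.297), and its groups overlapped through control replicate 3. Without that library ZNF780B was called lower, at -0.51 (adjusted p = 0.0463).

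Of 224 pairs of adjacent tested members in the same cluster, 145 (64.7%) had the same sign, where the share above 0 alone gives 57.2%, and the correlation of neighbours was weak (Pearson's r = 0.16, Spearman's rho = 0.23, over 224 pairs that share the same libraries). The difference between these shares was not tested. The longest stretch without a change of sign was 19 members above 0 in cluster 15, from ZNF611 to ZNF813, with log2 fold changes from 0.00 to 1.09 and 3 calls. Stretches of 12 members above 0 ran from ZNF433 to ZNF709 in cluster 3, with 3 calls, and from ZNF382 to ZNF383 in cluster 9, with none. The longest stretch below 0 was 5 members, from ZNF550 to ZNF211 in cluster 16. Stretches were picked by sign, so no member called lower could lie in those above 0. Of all tested members 69.0% lay above 0, and of all genes 8.95% were called higher. Within the windows of the clusters 176 other genes were tested, leaving out every symbol that begins with ZNF, ZFP, ZSCAN or ZKSCAN. Of the 176, 86 (48.9%) lay above 0, with a median of -0.02. Of these genes 13 were called higher (7.39%, against 8.95% of all genes) and 7 lower (3.98%, against 6.91%). Their values differed between clusters. In cluster 2 their median was 0.15 (23 of 35 above 0, 5 called higher, 2 lower), beside 0.13 for its members. In clusters 3, 6, 9 and 15 it was 0.02, 0.02, 0.09 and 0.01. In clusters 12 and 16 it was -0.17 and -0.29. Cluster 16 had 13 of 42 above 0, with 1 called higher and 3 lower. In cluster 15, 4 of 19 were called higher and 0 lower.

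By library, the members' median deviation from each gene's own mean (log2 CPM) was -0.01, 0.02 and -0.23 in control replicates 1 to 3 and 0.11, 0.02 and 0.08 in USAG1_OE replicates 1 to 3. Summed over all 253 members, the level was 2184 to 2467 CPM in control and 2614 to 2706 CPM in USAG1_OE libraries. For both measures the groups did not overlap and control replicate 3 lay far below the other control libraries. By the median, USAG1_OE replicate 2 lay just above control replicate 2, whereas by the sum the gap between the groups was wider than the range of the USAG1_OE libraries. In cluster 3 the same medians were -0.21, -0.02 and -0.40 in control and 0.13, 0.15 and 0.24 in USAG1_OE libraries. In cluster 15 they were -0.00, -0.05 and -0.36 in control and 0.13, 0.11 and 0.16 in USAG1_OE libraries. In both clusters every control library lay below every USAG1_OE library, with control replicate 3 the lowest. In cluster 16 the medians were -0.02, 0.02 and -0.03 against 0.04, -0.03 and 0.06, and the groups overlapped.

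**Figure D5:**
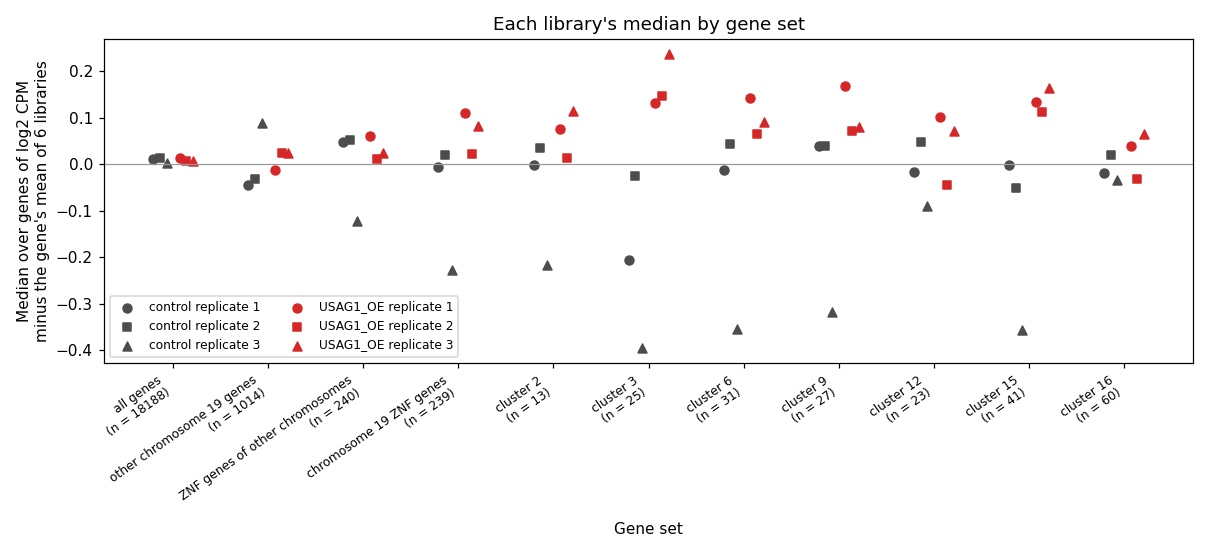
Median over genes of log2 CPM minus the gene's mean over the 6 libraries, for each library (symbols) and gene set (horizontal axis). Control replicate 3 (grey triangle) lies at -0.23 for the chromosome 19 ZNF genes and at 0.00 for all genes, while the USAG1_OE libraries (red) lie between 0.02 and 0.11 for the chromosome 19 ZNF genes.

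Control replicate 3 stood apart from the other libraries in more than the zinc finger genes. The chi-square per degree of freedom of its counts against the other control libraries was 42.3 and 42.7, whereas it was 6.52 to 8.35 for the other pairs within a group. It was the lowest of the 6 libraries for 112 members (46.9%), for 40.8% of ZNF genes on other chromosomes and for 25.0% of all genes. Its members lay at a median of -0.20 log2 CPM relative to the mean of the other control libraries, and ZNF genes of other chromosomes lay at -0.14, while the other genes of chromosome 19 lay at 0.14 and all genes at -0.00. Without it, 240 members could be tested, 149 (62.1%) lay above 0 and the median was 0.09. Of all genes 48.4% then lay above 0, with a median of -0.01. For other genes of chromosome 19 these values were 53.9% and 0.03, and for ZNF genes of other chromosomes 46.9% and -0.04. Among the members 27 were then called higher and 4 lower (ZNF780B, ZNF547, ZNF836 and ZNF700). That was 12.9% of the members against 27.0% of all genes, 25.9% of other chromosome 19 genes and 17.3% of other ZNF genes. All 17 calls made with every library were among the 27.

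The partners of KRAB zinc finger proteins were read from a list of 18 cofactor genes, of which 4 were called, 2 in each direction, beside 15.9% of all genes tested. CBX5, which encodes HP1 alpha, fell from 267 ± 1.69 to 187 ± 2.70 CPM, a log2 fold change of -0.51 (SE 0.05, adjusted p = 7.27e-04), and its groups were widely separated. ATF7IP, the partner that stabilises SETDB1, rose from 71.1 ± 3.44 to 91.9 ± 2.48 CPM (log2 fold change 0.37, adjusted p = 0.00606), and MORC2, an ATPase that works with the HUSH silencing complex, rose by 0.26 (adjusted p = 0.0307). MORC2 lost its call with the replicate block (adjusted p = 0.0524), without control replicate 2 (0.101) and without USAG1_OE replicates 1, 2 or 3 (0.0968, 0.126 and 0.0919). TRIM28 itself stood at 622 ± 24.9 CPM in control and 616 ± 28.2 CPM in USAG1_OE libraries (log2 fold change -0.01, adjusted p = 0.901), and SETDB1 had a log2 fold change of 0.01 (adjusted p = 0.961). The sign of the TRIM28 value turned in some alternatives. The number of called cofactor genes was 2 without control replicate 2 or without any 1 of the USAG1_OE libraries, and 6 without control replicate 3. Of all genes, 8.74%, 5.98% to 7.09% and 27.0% were called in those fits.

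The 14 members that could not be tested were ZNF177, ZNF560, ZNF812P, ZNF833P, ZNF491, ZNF788P, ZNF861P, ZNF208, ZNF725P, ZNF807P, ZNF233, ZNF541, ZNF534 and ZNF677. They had 0 to 31 counts per library, and ZNF560 and ZNF861P had none in any. At these depths a count of 0 allows up to 3 counts, or 0.0608 to 0.0719 CPM, a limit that covers counting error only. ZNF491 had 9, 8 and 4 counts in control and 4, 27 and 28 in USAG1_OE libraries, values that overlap.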

How the data were processed

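RNA sequencing of 6 HK-2 libraries was read from 1 table in which the authors deposited whole-number counts per gene, not normalized, with gene positions. Per the labels the libraries were poly(A)-selected and strand-specific, with paired reads of 150 bases. The submitters' processing notes name cutadapt 1.9, FastQC and the build hg38, and the aligner, the counting tool and the annotation are not given in the sources used here. Groups and replicate numbers come from the sample titles, and 0 columns of values were left without a library. Library totals were 41236194 to 48699471 counts.

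After filterByExpr and TMM scaling, genes were tested with edgeR 4.0.16 (quasi-likelihood, R 4.3.3) for USAG1_OE against control, with Benjamini-Hochberg adjustment over the 18188 genes tested and a threshold of 0.05 at any fold change. The study's methods name DESeq2, run here as an alternative (1.42.0), as was limma-voom (3.58.1). A standard error is the size of the log2 fold change over the square root of the F statistic, and log2 CPM used a prior count of 2. Transcript lengths were not used here, so levels are not compared between genes. The code was tested on simulated data. Further alternatives were DESeq2's size factors, library sizes alone, mitochondrial genes left out of library sizes, no filter, a minimum of 10 counts in each library, an offset for genomic span, each library left out in turn, a replicate block and a wider name pattern (ZNF, ZFP, ZSCAN and ZKSCAN). Clusters with gaps of 0.5 and 2 Mb, and DESeq2 without control replicate 3, were added after seeing the data.

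The members, the cofactor and marker lists and the tests were chosen with earlier results of these data known. Named genes were SOSTDC1, the 10 called members with the largest change in each direction (with at least 10 counts in every library and groups that did not overlap), the member with the smallest p of each cluster with 3 or more tested, the 3 members with the most counts, ZNF274, ZNF91, ZNF93, ZNF224, ZNF154, ZNF675 and ZNF420 for their known roles, the 3 cofactor genes with the smallest p and TRIM28. Other genes were named after their values were seen. A called cofactor gene is not reported here. Figures were drawn with matplotlib 3.10.9.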

Additional observations from a re-analysis of the deposited data

How the results depend on the processing

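The median log2 fold change of the chromosome 19 ZNF genes stayed above 0 in every alternative, between 0.09 without control replicate 3 and 0.19 without control replicate 1. The count of members called higher, 17, was 26 with DESeq2, 9 with no filter on low counts, and 29 with DESeq2 and without control replicate 3 (added after seeing the data). Of all genes, 8.95% were higher with edgeR and all libraries, and 11.2%, 3.59% and 16.2% in these settings in turn. Leaving out 1 library gave from 5 members (without USAG1_OE replicate 1 or 3) to 27 (without control replicate 3). Of all genes, 3.76%, 4.01% and 15.8% were higher in those fits. The count of members called lower, 0, was 2 with DESeq2 (ZNF547 and ZNF784), 1 with at least 10 counts in every library (ZNF547), and 4 with DESeq2 and without control replicate 3. Of all genes, 6.91% were lower with edgeR and all libraries, and 9.49%, 8.44% and 11.9% in these settings in turn. Leaving out 1 library gave from 0 to 4 lower members (without control replicate 3, where 11.2% of all genes were lower). The count of called cofactor genes, 4, was 2 with the replicate block and 8 with DESeq2 and without control replicate 3. It ranged from 2 to 6 when 1 library was left out. Of all genes, 15.9% were called with edgeR and all libraries, 13.1% with the block and 28.2% with DESeq2 and without control replicate 3. With 1 library left out the share of all genes was 5.98% to 27.0%. The causes were not tested. With 1 library left out, the log2 fold change of ZNF224 ranged from -0.21 (without USAG1_OE replicate 1) to 0.031 (without USAG1_OE replicate 2). That of TRIM28 then ranged from -0.038 (without USAG1_OE replicate 2) to 0.025 (without control replicate 3; 0.024 without USAG1_OE replicate 1). TRIM28 was 0.0027 with library sizes alone, 0.057 with the offset for genomic span and 0.018 with DESeq2 and without control replicate 3. Over all named genes and alternatives, 387 values kept direction and call, 51 lost the call, 4 gained it and 6 changed sign.

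Over all genes the replicate numbers were not found to pair the samples, since deviations of samples with the same number correlated at 0.07, -0.05 and 0.04. Over the members these correlations were 0.16, 0.38 and -0.05. Those of samples with different numbers ranged from -0.38 to 0.26 over the members. With the replicate block 12 members were called higher and 0 lower, and 2381 genes in all against 2884. That was 5.02% of the members, beside 7.43% of all genes higher and 5.66% lower. Clusters split at 0.5 Mb numbered 21 and at 2 Mb 8, with 64.5% and 63.6% of neighbours of the same sign. The median standard error of a member's log2 fold change was 0.16, against 0.14 over all genes.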
